A study of Danio rerio with 3 samples.

Results

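The genes described here are 6 that mark primordial germ cells, the founders of eggs and sperm: the RNA-binding regulators dazl, nanos3, dnd1 and elavl1b (hug), the RNA helicase gene ddx4 (vasa), and piwil1 (ziwi), which encodes a Piwi protein. Array oligos were chosen where the symbol column, clone title or RefSeq accession named 1 of these genes. This gave 15 of 33719 distinct oligos, for 5 of the 6 genes, and 14 of the 15 could be tested. No oligo named dnd1, which was not analysed here. The 2 piwil1 oligos carry the title "piwi protein" without the name ziwi and were taken for this gene.

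In zebrafish, primordial germ cells are set apart early by germ plasm, a store of maternal RNAs and proteins that a few blastomeres inherit. Many germ plasm proteins bind or unwind RNA. Germ cells keep transcripts such as nanos3 that somatic cells clear through the microRNA miR-430, with protection by Dnd1 and Dazl.

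The study hybridised 3 two-colour arrays, printed with long oligonucleotides from 3 sets (MWG, Compugen and Operon). Each array compared RNA of 50 zebrafish embryos injected with a FoxH1 morpholino with RNA of 50 control-morpholino embryos, all at 40% epiboly, and the design text calls the 3 repeats independent. FoxH1 is a transcription factor that works with Smad2 when cells receive Nodal signals, and morpholinos are antisense oligos that hinder the translation or splicing of a chosen mRNA. The sources used here give neither strain nor dose. Both groups were injected, and no untouched embryos were compared. Whole embryos were pooled, so the values cannot be assigned to germ cells. The number of germ cells, the RNA per germ cell and RNA in other cells cannot be told apart. Precision is limited by there being only 3 arrays.

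The FoxH1 morphants' RNA was labelled with Cy3 for arrays 1 and 2 but with Cy5 for array 3, and the labels alone do not settle the direction of its ratio. In the files, green held the morphant on arrays 1 and 2. Local background was higher in red than in green at 5.46% (array 1), 5.04% (array 2) and 94.2% (array 3) of spots. Of 188 random negative control spots, 132 were usable and above background in both columns on all 3 arrays. Over these 132, the green-over-red ratio on array 3 correlated with the mean of the other arrays at r = -0.73 (rank correlation -0.45). This is a description across spots that share the arrays. The columns were therefore read by sample, with green as the morphant throughout. Each member is also given with array 3 turned, that is with its sign reversed, as if red were Cy5 on every array. Between arrays 1 and 2 the ratios of 26206 tested oligos correlated at r = 0.82, and between array 3 and the other arrays at r = -0.35 and r = -0.46. The transcript of foxh1 itself was at -0.02, 0.07 and -0.13 (log2 morphant over control), which checks little because a morpholino need not alter the amount of its target mRNA.

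Of the 5 germ cell genes, with columns read by sample, dazl stood at the highest morphant-over-control ratio, nanos3 above 0 on 2 of 3 arrays, elavl1b slightly below 0, and ddx4 and piwil1 near 0. None passed limma's test. At an adjusted p under 0.05 the count was 0 of 5 genes and 0 of 14 tested oligos, against 0.00% of all 1042 named genes and 0.00% of all 26206 oligos (lowest adjusted p = 0.419 and 0.282). At an unadjusted p under 0.05 there were 1 of 5 genes (dazl) and 3 of 14 oligos, against 7.68% of all genes and 11.3% of all oligos. The median ratio of the 5 genes was 0.01, beside 0.06 over all named genes. One gene (dazl) was above 0 on all 3 arrays and 1 (elavl1b) was below, against 11.0% above and 16.3% below among all genes. With array 3 turned, 0 of 5 genes and 1 of 14 oligos (nanos3 MWG, adjusted p = 0.0449) passed, against 28.9% of all genes and 9.52% of all oligos. The order of the genes then differed, with nanos3 at 0.87, piwil1 at 0.27, dazl at 0.12, elavl1b at -0.09 and ddx4 at -0.36.

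**Figure D1:**
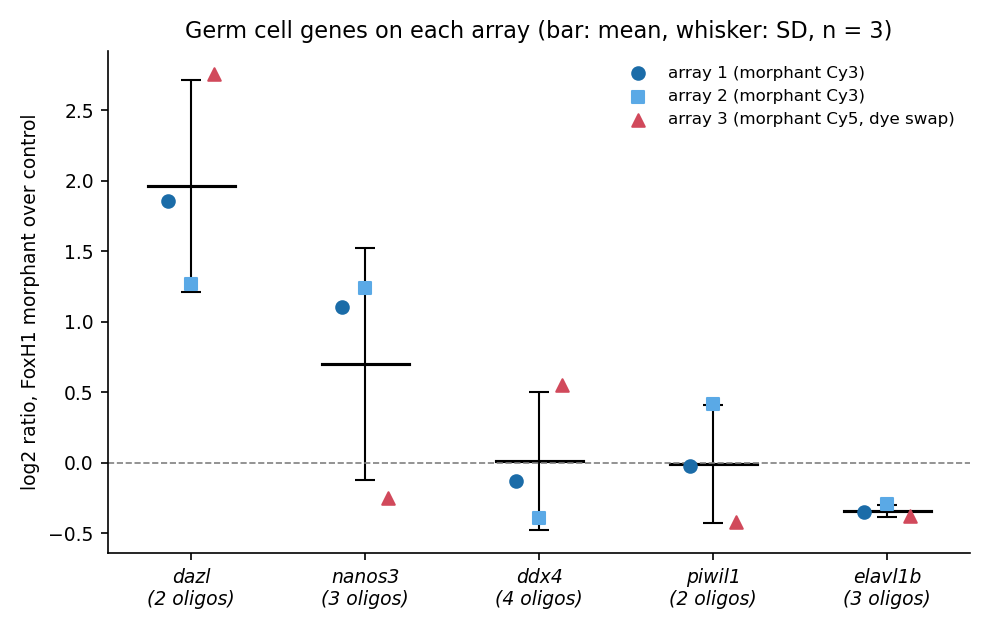
The log2 morphant-over-control ratio (y axis) of 5 germ cell genes on each of the 3 arrays, as points, with the mean as a bar and the SD as a whisker (n = 3). The 3 dazl points lie between 1.27 and 2.76, the 3 elavl1b points between -0.38 and -0.29, and the other genes have points on both sides of 0.

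Dazl encodes an RNA-binding protein with an RNA recognition motif that promotes translation in germ cells, and its transcript is part of zebrafish germ plasm. The MWG oligo for dazl showed intensities of 602, 403 and 1311 for the morphants on arrays 1, 2 and 3, against 619, 601 and 207 in the control column. The Operon oligo had 909, 387 and 1152 in the morphant column, against 525, 325 and 24.9 in the control column. Raw columns of an array are not on 1 scale: median oligo intensities were 191, 147 and 384 in the morphant column, against 467, 338 and 162 in the control column. After loess normalization, the log2 morphant-over-control ratio of the MWG oligo was 1.43, 0.90 and 1.25, and that of the Operon oligo 2.28, 1.64 and 4.27. Both oligos were thus above 0 on every array, in both dye orientations.

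A Compugen oligo for dazl gave a log2 ratio on only 1 array, -0.06 on array 3. It had 49.8, 5.2 and 176 in the morphant column, against 111, 103 and 0.7 in the control column. Its deposited quality score was 0 on arrays 1 and 2 and 0.1 on array 3, so it was not tested. With spots of quality 0 kept, the gene mean of dazl was 1.47.

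At gene level, dazl was at log2 ratios of 1.85, 1.27 and 2.76 on arrays 1, 2 and 3, a mean of 1.96 ± 0.75 (SD, n = 3 arrays) or 3.90-fold. The 95% interval ran from 0.89 to 3.03 (limma, adjusted p = 0.439 over 1042 genes). This mean was the highest of the 1042 named genes, 25 of which (2.40%) had a mean above 1. It ranked 565 with array 3 turned, 66 without replicate 3 and 60 with array weights. With the brightest oligo alone it ranked 21, and with spots of quality 0 kept 8 of 1076. By array, dazl ranked 46 and 105 from the top on arrays 1 and 2 and 1 on array 3. The Operon oligo had its highest ratio on array 3, where its control spot of 24.9 lay below 2 SDs of the local background (50.6). With that control spot set at 50.6 and the loess curve not refitted, the oligo's ratio on array 3 would be 3.25 and the gene's mean 1.79 ± 0.49. With only oligos above background in both columns, dazl rests on the MWG oligo, at 1.19, and ranked 9 of 1022 genes.

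A term for the dye in the fit gave dazl 2.16, with a 95% interval from 1.62 to 2.70 (limma, adjusted p = 0.0833). This was the lowest adjusted p in that fit, but dazl shared it with other genes, among them ccnb1, cth1, sod1 and tbx16. That fit put 28.0% of all genes at an unadjusted p under 0.05 and 0.00% past the adjusted threshold. It fitted array 3 exactly. Its interval and p rest on the spread between arrays 1 and 2, with variance that limma shares between genes. With array 3 turned, the mean of dazl was 0.12 (adjusted p = 0.943), with the MWG oligo at 0.36 and the Operon oligo at -0.12. Arrays 1 and 2 alone gave 1.56 (limma, adjusted p = 0.0196), in a fit that called 48.1% of all genes. The morphant carried Cy3 on both, so dye and morpholino cannot be told apart there. Array weights gave 1.60 (adjusted p = 0.0136), in a fit that called 55.6% of all genes.

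**Figure D2:**
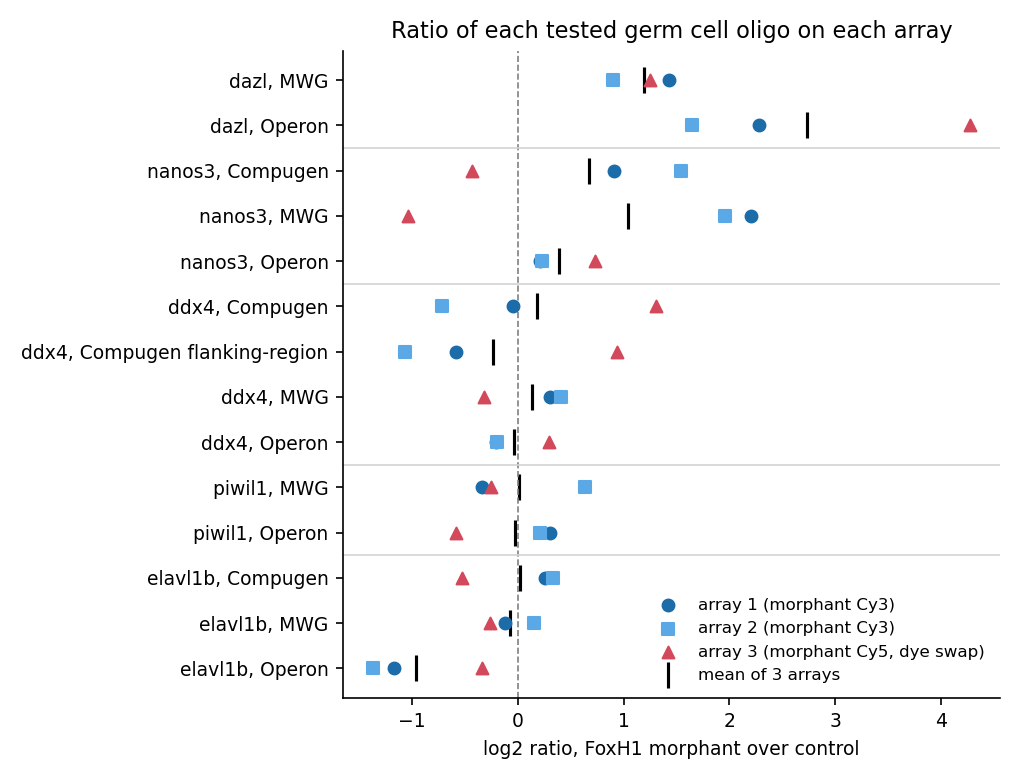
The log2 morphant-over-control ratio (x axis) of each of the 14 tested germ cell oligos on each array, with the mean of 3 arrays as a vertical tick. Both dazl oligos lie right of 0 on all 3 arrays, up to 4.27 for the Operon oligo on array 3, while 8 oligos have array 3 on the opposite side of 0 from arrays 1 and 2.

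Nanos3 encodes a zinc finger protein that represses translation and is needed for migration and survival of primordial germ cells. It was first named nanos1 in zebrafish, and the arrays use that name and nanos. Its ratios depended on the oligo and on the array. The MWG oligo was at 2.20, 1.96 and -1.03 on arrays 1, 2 and 3, the Compugen oligo at 0.91, 1.54 and -0.43, and the Operon oligo at 0.21, 0.22 and 0.73. The Operon oligo was the 1 of these above 0 on all 3 arrays. The other 2 oligos were above 0 with the morphant in Cy3 and below 0 in the swap. The Operon oligo was on average the brightest of the 3, with intensities of 730, 365 and 1110 in the morphant column, against 1893, 893 and 250.2 in the control column.

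The nanos3 gene mean was 0.70 ± 0.82 (SD, n = 3 arrays), from 1.11, 1.24 and -0.25. The 95% interval ran from -0.45 to 1.85 (limma, adjusted p = 0.808), so this test did not separate the mean from 0. A dye term gave 0.46 (limma, adjusted p = 0.100), and the fitted dye effect was 0.71 in size, beside a median absolute dye effect of 0.41 over all genes. The mean of 0.70 holds part of that dye effect, because the dye orientations were not balanced. Turning array 3 gave a mean of 0.87 (adjusted p = 0.0707). Without array 3 it was 1.18 (limma, adjusted p = 0.0138), and with array weights 1.15 (adjusted p = 0.0136), in the same fits that called 48.1% and 55.6% of all genes. Dye and morpholino cannot be told apart without array 3. Of the settings tried, no background correction gave the lowest nanos3 value, 0.37, and the brightest oligo gave 0.39.

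Ddx4, or vasa, is an RNA helicase of the DEAD-box family whose transcript is a standard marker of zebrafish germ plasm and germ cells. It had 4 tested oligos, of which 1 Compugen oligo is titled as the flanking region and exon 1 of a vasa-like gene. The Operon oligo was the brightest germ cell oligo in both columns, with 1124, 628 and 1728 in the morphant column, against 4186, 2286 and 524 in the control column. Its log2 ratios were -0.20, -0.19 and 0.29. The MWG oligo was at 0.31, 0.41 and -0.32, the Compugen coding oligo at -0.04, -0.71 and 1.31, and the Compugen flanking-region oligo at -0.58, -1.07 and 0.94. All 4 had array 3 on the other side of 0 from arrays 1 and 2, against 49.6% of all oligos. The MWG oligo did so in the opposite direction to the rest.

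The ddx4 gene mean was 0.01 ± 0.49 (SD, n = 3 arrays), from -0.13, -0.39 and 0.56 on arrays 1, 2 and 3. The 95% interval ran from -0.77 to 0.79 (limma, adjusted p = 0.989), so changes of up to those sizes either way are within the error. Without the flanking-region oligo, a choice made after seeing the data, the mean was 0.094. It was -0.36 with array 3 turned (adjusted p = 0.147) and 0.15 with a dye term (adjusted p = 0.402).

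Piwil1 belongs to the Piwi proteins, which bind small piRNAs and silence transposons in germ cells. The MWG oligo had 127, 175 and 329 in the morphant column, against 399, 275 and 156 in the control column. The Operon oligo had 335, 199 and 619 in the morphant column, against 731, 442 and 348 in the control column. Log2 ratios were -0.34, 0.63 and -0.26 for the MWG oligo and 0.30, 0.20 and -0.58 for the Operon oligo. The gene mean was -0.01 ± 0.42 (SD, n = 3 arrays), with a 95% interval from -0.72 to 0.71 (limma, adjusted p = 0.993). Turning array 3 gave 0.27 (adjusted p = 0.267). A testis EST in the same UniGene cluster, which the naming rule did not pick, was at 0.42, 0.30 and -0.35, and with it the mean of piwil1 was 0.037.

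Elavl1b, listed as hug, encodes an RNA-binding protein of the Elav/Hu family. Its gene mean varied little between arrays, at -0.35, -0.29 and -0.38, but its oligos differed. The Operon oligo was at -1.17, -1.37 and -0.33, with intensities of 215, 127 and 497 in the morphant column, against 1321, 850 and 238 in the control column. It was the only 1 of the 14 germ cell oligos below 0 on all 3 arrays, against 17.6% of all oligos (mean -0.96 ± 0.55, limma, adjusted p = 0.400). The Compugen oligo was at 0.25, 0.33 and -0.53, and the MWG oligo at -0.12, 0.16 and -0.26.

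The elavl1b gene mean was -0.34 ± 0.04 (SD, n = 3 arrays), with a 95% interval from -0.81 to 0.13 (limma, adjusted p = 0.777). The small SD over arrays comes with a range of 0.98 between the means of its 3 oligos. Over the 813 genes with several tested oligos, the median of that range was 0.66. Turning array 3 gave -0.09 (adjusted p = 0.790), and the brightest oligo alone gave 0.018. Array weights gave -0.32 (limma, adjusted p = 0.0344), in a fit that called 55.6% of all genes.

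**Figure D3:**
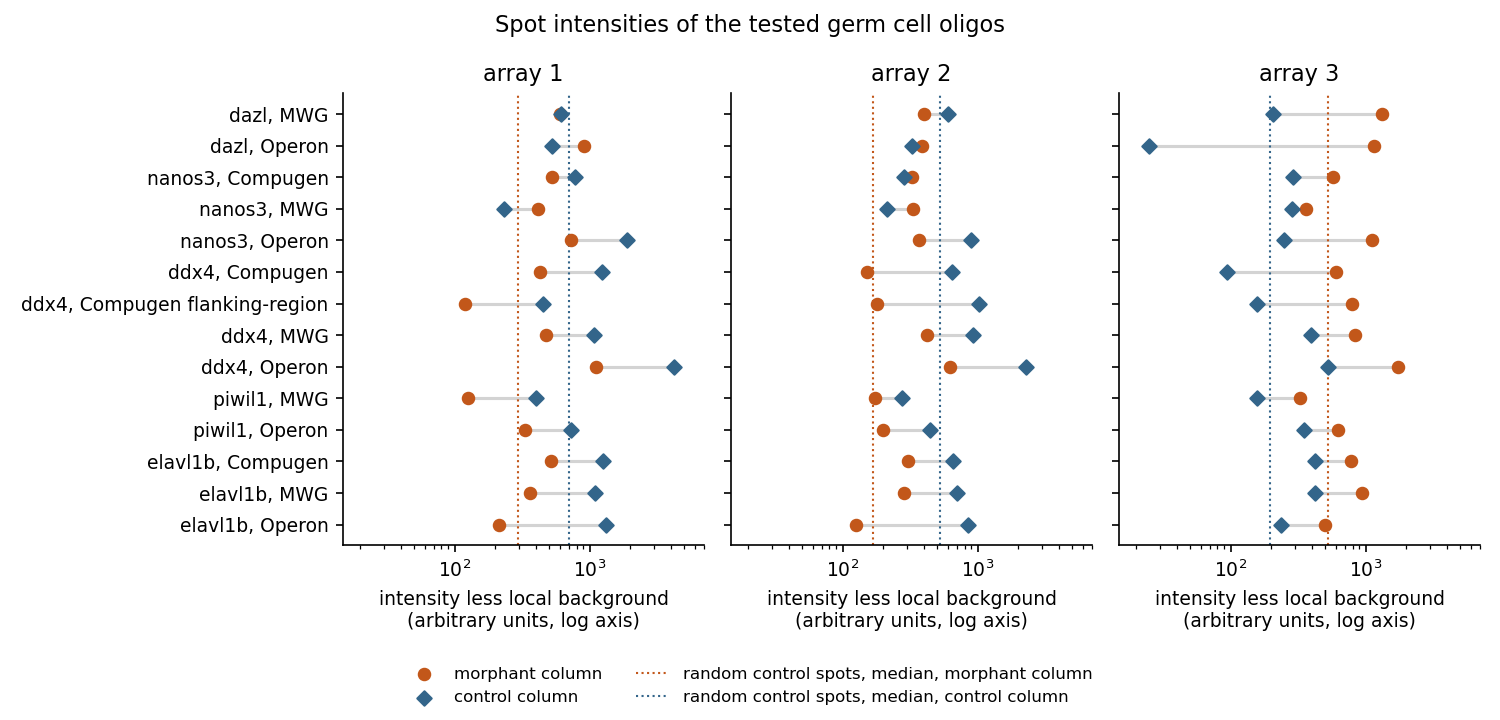
Spot intensity less local background (x axis, log scale, arbitrary units) of the 14 tested germ cell oligos in the morphant and control columns of each array, with dotted lines at the medians of random negative control spots. On array 3 the control spot of the dazl Operon oligo (24.9) lies far left of all others shown.

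The spots stood above 1 kind of negative control more clearly than above the other. All 14 tested oligos were brighter than the median Arabidopsis control spot in both columns, except the dazl Operon oligo in the control column of array 3. Random negative control spots were brighter, with medians of 297, 168 and 526 in the morphant column, against 704, 522 and 197 in the control column of arrays 1, 2 and 3. Of the 14 oligos, 11, 12 and 11 exceeded that median in the morphant column, against 9, 9 and 10 in the control column. How much of each spot's signal came from its own transcript was not tested.

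In many oligos the sign of the ratio differed between the dye orientations. Arrays 1 and 2 shared a sign and array 3 had the other in 8 of 14 germ cell oligos, against 49.6% of all oligos. Above 0 on all 3 arrays were 3 of 14 (both dazl oligos and the nanos3 Operon oligo), against 17.0% of all oligos. At gene level, 2 of 5 genes (nanos3 and ddx4) had array 3 on the other side, against 59.9% of all genes. Turning array 3 puts 5 of 14 oligos above 0 and 3 below 0 on all 3 arrays, against 24.8% and 24.7% of all oligos. For genes the same count was 1 above (nanos3) and 1 below (ddx4) of 5, against 44.0% and 15.8% of all genes. The median absolute dye effect was 0.41 over the 5 genes and 0.41 over all genes.

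**Figure D4:**
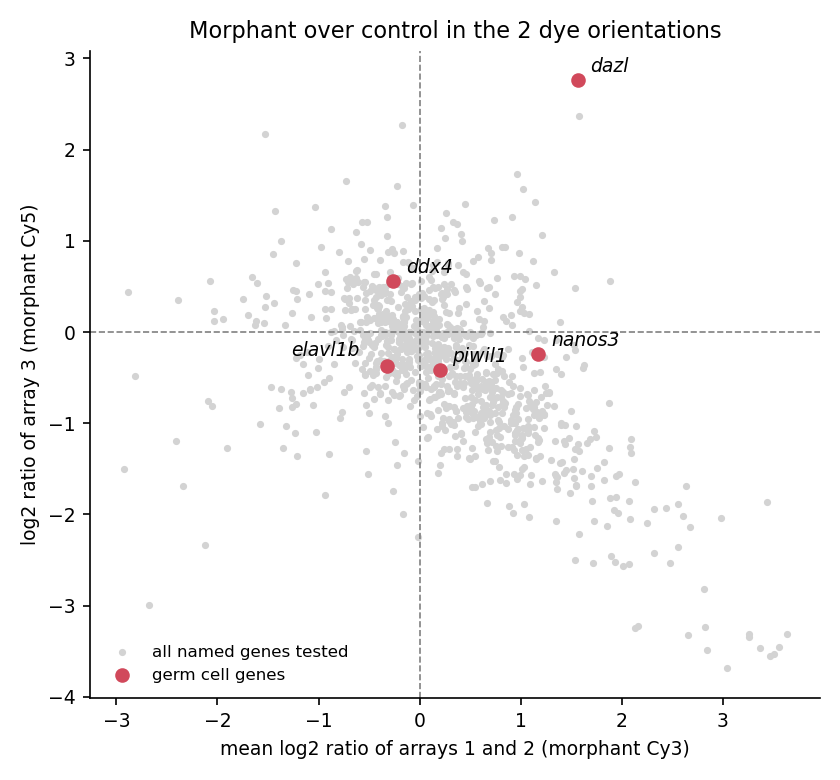
Each point is 1 of 1042 named genes, with the mean log2 morphant-over-control ratio of arrays 1 and 2 (x axis) against the ratio of array 3 (y axis). Dazl lies at the upper right (1.56 and 2.76), away from the band of genes that runs from upper left to lower right, and nanos3 lies at 1.18 and -0.25.

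Few other genes of germ plasm and germ cells could be measured. Of 36 such genes listed besides the members, 3 were tested and 0 passed in either direction, as among all genes. The gene for the polyadenylation regulator cpeb1b was at 0.98, 0.83 and 0.18 (mean 0.67 ± 0.42, adjusted p = 0.680). The gene for the RNA-binding protein celf1 was at 0.07, 0.11 and 0.46 (mean 0.21 ± 0.22). The gene for the Y-box protein ybx1, which binds maternal mRNAs, was at -1.06, -0.93 and -0.29 (mean -0.76 ± 0.41, adjusted p = 0.593). On all 3 arrays 2 of these genes were above 0 and 1 below, against 11.0% and 16.3% of all genes, and with array 3 turned each has both signs. Their means with array 3 turned were 0.54 (cpeb1b), -0.09 (celf1) and -0.56 (ybx1).

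Genes for germ cell guidance lay near 0. Germ cells follow the chemokine Cxcl12a through the receptor Cxcr4b. Of 10 listed guidance genes, 3 were tested and 0 passed in either direction, against 0.00% of all genes. The receptor gene cxcr4b was at -0.13, -0.02 and 0.29 (mean 0.05 ± 0.22), its paralog cxcr4a at -0.34, -0.21 and 0.18, and the E-cadherin gene cdh1 at 0.21, 0.25 and -0.20. All 3 had the other sign on array 3, the dye swap, as did 59.9% of all genes.

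Of 12 listed paralogs of the members, 3 were tested under their gene name, all of the Elav family. Oligos titled as piwil2 carried no gene symbol and are given further below. The broadly expressed elavl1a was at -0.24, -0.17 and -0.11 (mean -0.17 ± 0.07). The neuronal genes elavl3 and elavl4 were at 0.55, -0.18 and -0.46 and at 2.18, 1.62 and -2.46. None passed. With array 3 turned elavl4 was at 2.08 (limma, adjusted p = 0.00948), in a fit that called 28.9% of all genes. A dye term gave elavl4 -0.28 (limma, adjusted p = 0.339).

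Maternal transcripts of a list of those cleared in early embryos, in part through miR-430, gave mostly positive values. Of 19 listed, 7 were tested, nanos3 and ybx1 among them. Of the 7, 4 were above 0 on all 3 arrays and 1 below, against 11.0% and 16.3% of all genes. Their median of 0.70, beside 0.06 over all genes, is the value of the member nanos3 itself. None passed the test. The superoxide dismutase gene sod1 was at 1.85, 1.91 and 0.56, the zinc finger gene cth1 at 1.53, 1.54 and 0.49, the cyclin gene ccnb1 at 1.06, 0.91 and 0.87, and the Nodal partner gene gdf3 at 0.67, 0.70 and 0.49. Below 0 in the mean were ybx1, given above, and the claudin gene cldne at -0.53, -0.63 and 0.10 (mean -0.35 ± 0.40), which is also in the enveloping layer list and is named here after its values were seen. Turning array 3 made these means 1.07 (sod1), 0.86 (cth1), 0.37 (ccnb1) and 0.29 (gdf3), and the median of the 7 was 0.37 beside 0.20 over all genes.

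Genes listed as markers of other cell types in the embryo also had ratios away from 0. Of 5 tested enveloping layer genes, 4 were below 0 on all 3 arrays (median -0.80). So were all 3 tested genes of the deep cell list (median -1.19, which is the value of tbx16 itself). These genes differed in size, with the T-box genes tbxta at -2.19 ± 0.59 and tbx16 at -1.19 ± 0.07, and pou5f3 at only -0.24 ± 0.19. The 2 tested yolk syncytial genes were at -0.76 ± 0.41 (gata6) and 0.57 ± 0.05 (fn1a). None passed the test. Among all genes 16.3% were below 0 on all 3 arrays. Turning array 3 gave medians of -0.36 for the enveloping layer and -0.45 for deep cells, with pou5f3 at 0.07. Whether any of these genes reflects the amount of its cell type, rather than its own regulation, was not tested. Nor was the part of these cell types in the germ cell values.

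The genes nearest to each member over the 3 arrays were taken from the 1042 named genes by Euclidean distance of log2 ratios. For dazl these were the Polycomb gene phc2a (1.77, 1.38 and 2.36, distance 0.42, 1 oligo) and the proteasome gene psma6b (1.27, 0.77 and 1.57, distance 1.42, 1 oligo). For nanos3 they were smad2 (1.20, 1.25 and -0.28) and the egg coat gene zp3b (1.15, 1.20 and -0.07), at distances of 0.10 and 0.19. Ddx4 was nearest to ube2ib and mxi1 (both at 0.17), piwil1 to cdh11 and mespaa (0.14 and 0.19), and elavl1b to mdka and ccnd1 (0.015 and 0.050).

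**Figure D5:**
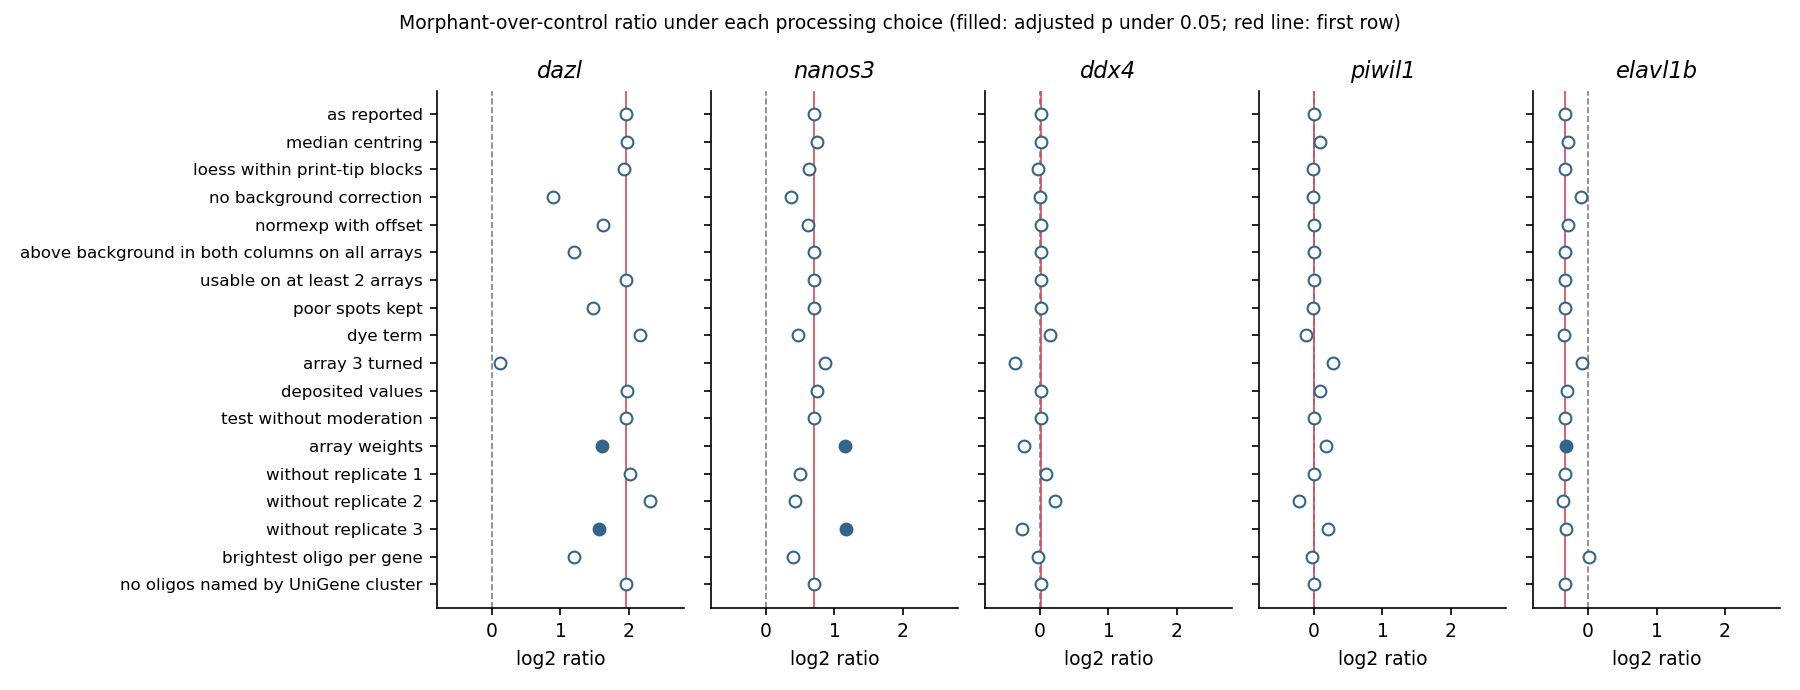
The log2 morphant-over-control ratio (x axis) of each germ cell gene under each processing choice (y axis), filled where the adjusted p was under 0.05. For dazl the ratio lies above 0 under every choice shown, from 0.12 with array 3 turned to 2.31 without replicate 2. It is past the threshold with array weights and without replicate 3, fits that called 55.6% and 48.1% of all genes. Without replicate 3 the morphant carried Cy3 on every array.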

How the data were processed

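Per the file headers, an array's deposited table lists for every spot the mean intensity in red and green, local backgrounds with their SDs, a ratio and a quality score. The authors deposited the intensity columns with local background already subtracted. Their deposited ratio is red over green divided by a constant of each array. Minus log2 of it matches the authors' deposited log2 matrix to 0.01 for 35328, 35328 and 35327 of 35328 values, with medians of -0.02, 0.00 and 0.00 and no correction for intensity. Spots whose deposited quality score is 0 were dropped. Whether RNA was amplified before labelling is told differently in the design text (yes) and the labels' protocol (total RNA). Scanner and software: not given in the sources used here.

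Log2 green over red was normalized on each array by loess (span 0.3) over oligo spots, and repeat spots were averaged. Tests took oligos with usable spots on 3 arrays whose signal exceeded 2 background SDs in green or red on 2 or more arrays. Symbols came from RefSeq accessions (1302 of 1375 found, GRCz12tu table), symbol and title columns, and shared accessions or UniGene clusters, which named 3049 oligos and left 30670 unnamed. Oligos of a gene were averaged. They share the arrays and are not replicates.

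Means were tested against 0 with limma 3.58.1 in R 4.3.3 (lmFit, eBayes, Benjamini-Hochberg over all genes or oligos, threshold 0.05, no dye term). The p-values measure the spread between the 3 arrays, which mixes differences between pairs of pools with those between dye orientations. Arrays 1 and 2 shared a dye orientation and array 3 had the other. The mean of each gene over the 3 arrays therefore also holds part of any dye effect. In the limma gene fits, 7.68% of genes had an unadjusted p under 0.05 without a dye term and 28.0% with it. With a dye term array 3 is fitted exactly, so those p-values measure no spread of array 3. The smallest two-sided p that sign flips of 3 arrays allow is 0.25. The fits were also run on simulated ratios, where only the effect sizes in data without dye effects were checked. That check does not tell how the test behaves where dye effects are present. Figures used matplotlib 3.10.9 in Python 3.11.15.

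The members and lists were chosen with earlier results of these data known. Named besides the members were up to 6 other germ cell genes and up to 4 cleared maternal genes by smallest p. Every tested gene of a list of paralogs and the 2 nearest genes of each member were also named. Guidance genes, cell type markers and foxh1 stand beside them. Alternatives covered background, normalization, filters, quality, dye, direction of array 3, deposited values, moderation, weights, each replicate and the choice of oligos.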

Additional observations from a re-analysis of the deposited data

How the results depend on the processing

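Each array holds both pools and gives 1 ratio, so the test of the ratios against 0 is already a paired test. Counts of calls moved from 0 with array 3 turned (2494 oligos, 301 genes), with array weights (16128 oligos, 579 genes) and without replicate 3 (0 to 5927 oligos and 0 to 501 genes over the 3 arrays left out in turn). Among other germ cell genes array weights called 1 higher and 1 lower, and leaving out replicates 0 to 1 each way. The cause was not tested. With array weights dazl (1.60), nanos3 (1.15) and elavl1b (-0.32) passed, and without replicate 3 dazl (1.56) and nanos3 (1.18) did. Without replicate 3 the morphant carried Cy3 on both arrays, so dye and morpholino cannot be told apart. With array weights, the dazl and nanos3 means lay close to those without replicate 3. Leaving out each replicate gave 1.56 to 2.31 for dazl, 0.43 to 1.18 for nanos3, -0.26 to 0.21 for ddx4, -0.22 to 0.20 for piwil1 and -0.36 to -0.32 for elavl1b. Ddx4 turned sign with print-tip loess (-0.029), array 3 turned (-0.36), array weights (-0.24) and the brightest oligo (-0.036). Piwil1 turned with median centring (0.094), array 3 turned (0.27), deposited values (0.088), array weights (0.17) and its cluster's testis EST (0.037, chosen after seeing the data). Elavl1b turned with the brightest oligo (0.018).

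Single oligos turned sign as follows, mostly from values near 0. With array 3 turned these were dazl Operon (-0.12), nanos3 Operon (-0.10), ddx4 Compugen (-0.69), piwil1 Operon (0.36) and elavl1b MWG (0.10). With a dye term they were ddx4 Compugen flanking-region (0.058), ddx4 Operon (0.046), piwil1 MWG (-0.057) and elavl1b Compugen (-0.12). With array weights they were ddx4 Compugen (-0.12), piwil1 MWG (-0.20) and piwil1 Operon (0.28). Piwil1 Operon also turned with median centring (0.058) and deposited values (0.051), ddx4 MWG with print-tip loess (-0.041), and ddx4 Operon without background correction (0.015). Leaving out each replicate gave -0.20 to 0.049 for ddx4 Operon, -0.82 to 0.18 for ddx4 Compugen flanking-region, -0.38 to 0.63 for ddx4 Compugen, -0.0053 to 0.36 for ddx4 MWG, -0.30 to 0.19 for piwil1 MWG, -0.19 to 0.25 for piwil1 Operon, -0.14 to 0.29 for elavl1b Compugen and -0.19 to 0.019 for elavl1b MWG. Direction and side of the threshold were as reported in 70 of 87 recomputed gene values and 172 of 209 oligo values. These counts include settings that tested little. Admitting oligos usable on fewer arrays, testing without moderation and dropping names from UniGene clusters left the mean of every member gene unchanged. Leaving out either array with the morphant in Cy3 gave limma adjusted p of at least 0.9998. No gene or oligo came near the threshold there. Turning array 3 gave the lowest dazl value (0.12), followed by 0.90 without background correction.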

Other observations

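Further oligos are titled as germ cell regulators or their homologs, and they were chosen by title after the data had been seen. Pumilio proteins bind RNA together with Nanos in other species. All 7 oligos with pumilio in the title had means below 0, from -0.58 to -0.12, beside a median of 0.02 over all oligos. Several share a title and all share the arrays, so they are not replicates. On all 3 arrays 3 of them were below 0, against 17.6% of all oligos. Of these, 1 titled pumilio 1 and 1 titled pumilio 2 were close to 0 on array 3 (-0.012 and -0.0035). The remaining 1, also titled pumilio 1, was at -0.59, -0.59 and -0.57 (limma, adjusted p = 0.369). The pumilio oligos outside those 3 were above 0 on array 3, up to 1.71 for an oligo titled pumilio-homology domain. With array 3 turned, the 7 were still below 0, from -1.48 (the oligo titled pumilio-homology domain) to -0.16.

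Both oligos titled as similar to mouse piwil2 were above 0 on all 3 arrays, against 17.0% of all oligos. They were at 0.91, 0.80 and 0.19 and at 0.65, 0.29 and 1.48 (limma, adjusted p = 0.461 and 0.474), and with array 3 turned at 0.51 and -0.18. An oligo titled as similar to mouse daz-associated protein 1 was at 0.08, 0.09 and 0.80, and -0.21 with array 3 turned. The 3 oligos of the nuclear receptor gene nr6a1a, titled germ cell nuclear factor, had means of -0.76, -0.39 and -0.09, and -0.09, -0.50 and 0.12 with array 3 turned. The 2 tested oligos titled as germ cell-less homologs were at -0.03 and 0.73, and at -0.08 and -0.20 with array 3 turned. None of these oligos passed the test.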
